A study of Mus musculus with 16 samples.

Results

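The genes described here are 10 inflammatory chemokines and cytokines, Ccl2, Ccl3, Ccl4, Ccl5, Ccl12, Cxcl9, Cxcl10, Tnf, Il1b and Il6, out of the 32285 genes that each count matrix lists. They were chosen by symbol, and each symbol matched 1 row. Single-nucleus RNA-seq had been run on sorted nuclei of frozen hippocampus from 16 male mice, 1 animal per library. C57BL/6 wild-type (WT) mice were 2 months and 23 days old, and mice lacking Ifnar1 (Ifnar1-/-, here KO) were 3 months and 3 days old. Within each genotype, 4 mice received vehicle and 4 received DMXAA by repeated intraperitoneal injection, and hippocampi were taken after the last injection and perfusion. Genotype, age and cohort cannot be told apart in comparisons between genotypes, whereas DMXAA against vehicle was compared within each genotype. The question was which of these genes respond in brain tissue to DMXAA and whether the response needs the type I interferon receptor. Libraries are called by their group and a number that only names them.

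Chemokines are small secreted proteins that guide leukocytes along concentration gradients through G-protein-coupled receptors, and Tnf, Il1b and Il6 encode cytokines that drive local and systemic inflammation. DMXAA is an agonist of mouse STING, the adaptor that lies downstream of the DNA sensor cGAS. STING activates both the kinase TBK1 with the factor IRF3, which induces type I interferon, and NF-kB, which induces many cytokine genes. Type I interferon in turn signals through a receptor that contains Ifnar1 and induces genes such as Cxcl10. In brain, microglia and the macrophages of the meninges and perivascular spaces are well-known sources of these messengers, and astrocytes can make Cxcl10 and Ccl2.

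Promoters of Ccl12, Cxcl10 and Il6 are shown to compare their interferon and NF-kB motifs. WT DMXAA held the most UMIs of each (226, 34 and 34), as it did for every other member but Ccl4. The Il6 counts lay almost wholly in microglia. The sequences are the 250 bases before the RefSeq gene start (GRCm38.p6, the assembly also called mm10), 5′ to 3′ on the gene's own strand, with motif matches in capitals. The windows are chr11:82101595-82101844 on the plus strand for Ccl12, chr5:92348890-92349139 on the minus strand for Cxcl10 and chr5:30012864-30013113 on the plus strand for Il6.
Ccl12: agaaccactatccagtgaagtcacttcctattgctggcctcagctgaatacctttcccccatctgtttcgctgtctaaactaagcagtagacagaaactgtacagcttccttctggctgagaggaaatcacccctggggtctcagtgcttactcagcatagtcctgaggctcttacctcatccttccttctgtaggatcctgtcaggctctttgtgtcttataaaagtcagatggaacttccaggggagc
Cxcl10: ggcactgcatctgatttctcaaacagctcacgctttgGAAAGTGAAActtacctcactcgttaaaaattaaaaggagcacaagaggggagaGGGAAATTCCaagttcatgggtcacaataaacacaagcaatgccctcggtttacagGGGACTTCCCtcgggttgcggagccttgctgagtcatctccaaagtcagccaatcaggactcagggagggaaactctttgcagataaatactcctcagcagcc
Il6: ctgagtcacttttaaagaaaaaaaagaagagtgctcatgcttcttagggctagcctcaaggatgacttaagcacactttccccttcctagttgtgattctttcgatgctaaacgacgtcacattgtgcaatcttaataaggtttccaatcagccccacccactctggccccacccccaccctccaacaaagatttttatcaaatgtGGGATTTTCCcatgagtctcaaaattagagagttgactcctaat
Both strands were searched for the interferon-stimulated response element (GAAA, any 2 bases, GAAA), for the interferon-gamma activated site TTCNNNGAA and for the NF-kB consensus. Cxcl10 held 1 response element, 213 bases before the start, and 2 NF-kB matches, at 159 and 103 bases before it. The Il6 window held 1 NF-kB match, 44 bases before the start, and no response element. None of the 3 motifs was found in these letters of the Ccl12 window. Of 32841 RefSeq promoter windows of the same length, 2.98% held the response element, 7.02% the activated site and 3.90% the NF-kB consensus. Windows were at hand for 7 of the 10 members, and those of Ccl3, Cxcl9, Tnf and Il1b held no match.

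Of 155084 deposited barcodes, 108878 nuclei were kept, with 5163 to 9237 nuclei and 32721410 to 51819478 UMIs (unique molecular identifiers, the counted transcripts) per library. Nuclei were named from marker genes, so that microglia here means microglia-like nuclei, led by Siglech, Inpp5d and Csf1r, and the other names are to be read in the same way. Ifnar1 itself was at 13.3 to 19.3 CPM (counts scaled to a common library total) in the 8 WT libraries and at 10.5 to 12.4 CPM in the 8 KO libraries. UMIs of the gene thus remained in KO libraries, below every WT library. Whether the counted bases lie inside the deleted stretch is not given in the sources used here. The summed level of 10 interferon response genes in microglia was 263 to 358 CPM in WT vehicle libraries. It was 4241, 2217, 1260 and 1985 CPM in WT DMXAA replicates 1 to 4, so that WT DMXAA replicate 1 was the highest and replicate 3 the lowest of the treated WT libraries. All 7 markers of monocytes and neutrophils were detected in every group, summing to 0.725 to 0.964 CPM in WT vehicle and to 1.54 to 29.0 CPM in WT DMXAA, with the upper value in replicate 3. Any 2 libraries shared 12 to 41 barcodes, at most 0.445%.

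The 10 genes were rare in these nuclei. Together they had 1080 UMIs over all nuclei kept, with 381 UMIs for Ccl5, 280 for Ccl12, 88 for Il6, 82 for Ccl4, 77 for Il1b, 63 for Cxcl10, 44 for Tnf, 35 for Ccl2, 26 for Ccl3 and 4 for Cxcl9. In sums over a library, fewer cells of a type and less RNA per cell cannot be told apart. Ccl12, Ccl4, Ccl5, Il1b and Il6 were seen in all 16 libraries, Cxcl10 in 12, Tnf in 11, Ccl3 in 8, Ccl2 in 7 and Cxcl9 in 3. Of 1658 member UMIs over all deposited barcodes, the 1080 kept were 65.1%, against 47.5% for the UMIs of all genes.

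**Figure D1:**
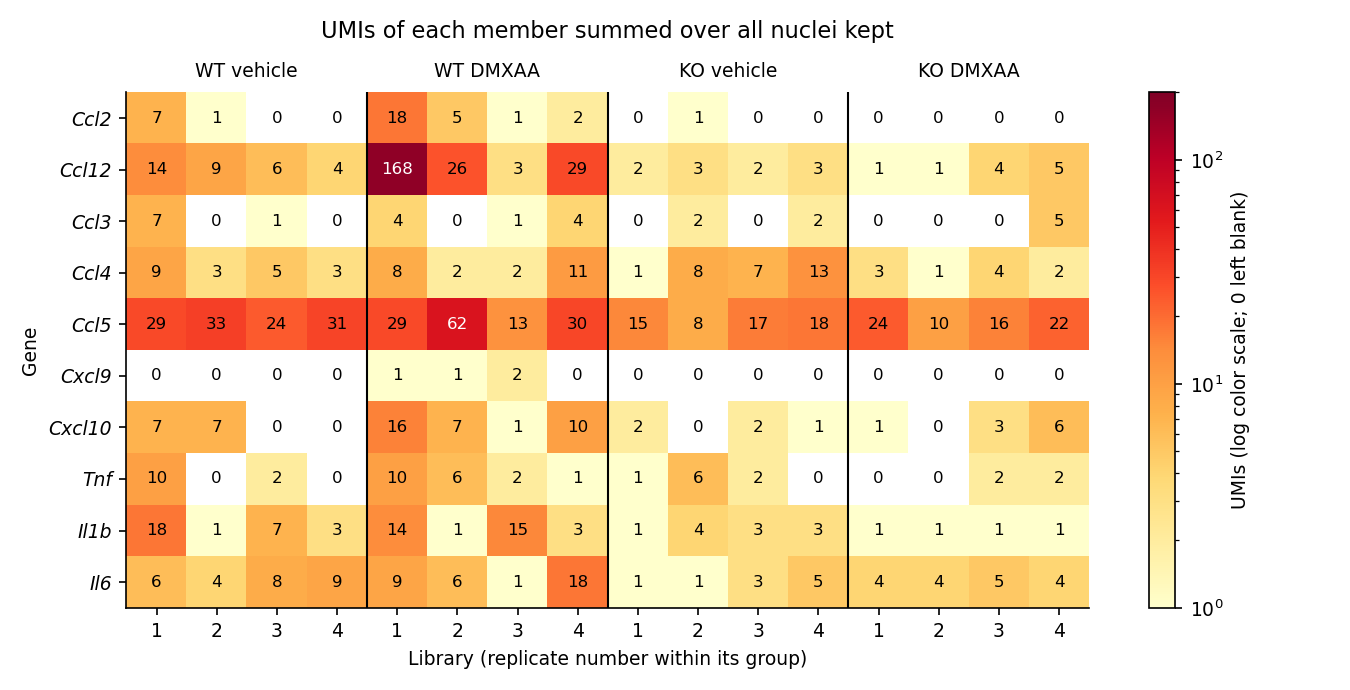
UMIs of each member (rows) summed over all nuclei kept in each of the 16 libraries (columns, 4 a group), with the count printed in each cell and colored on a log scale. Ccl12 stands at 168 UMIs in WT DMXAA replicate 1 and at 3 in WT DMXAA replicate 3, and Cxcl9 is at 0 (white) in 13 libraries.

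Most members lay in microglia, which made up 4.37% of nuclei and 1.52% of UMIs. Microglia held 93.2% of the Il6 UMIs, 76.8% of those of Ccl4, 72.7% of those of Tnf, 71.4% of those of Ccl2, 67.5% of those of Ccl12 and 65.4% of those of Ccl3. These shares are pooled over libraries. WT DMXAA replicate 1 gave 126 of the 189 microglial Ccl12 UMIs and 15 of the 25 of Ccl2. In WT vehicle, microglia held 17 of the 33 Ccl12 UMIs. In WT vehicle replicate 1 they held 1 of 14 Ccl12, 1 of 7 Ccl2 and 3 of 10 Tnf UMIs. In that library they held 5 of 6 Il6, 6 of 9 Ccl4 and 6 of 7 Ccl3 UMIs. For Il1b the largest share, 41.6%, lay in 308 nuclei named border macrophages (Mrc1, F13a1, Cd163), beside 22.1% in microglia. Of these 32 UMIs, 16 lay in a single nucleus and 12 in nuclei with a UMI of S100a8 or S100a9, which the name does not describe, and the other border nuclei held 4. When microglia were chosen nucleus by nucleus instead of by cluster, they held 50.6% of the Il1b UMIs, so the class of Il1b depends on the naming. Cxcl10 had 60.3% of its UMIs in astrocytes, which held 7.72% of the UMIs of all genes. Ccl5 had 59.6% in excitatory neurons, which held 66.4% of the UMIs of all genes, so that its share there was not above theirs. Ccl12 was at 80.7 CPM in border macrophages (95% Poisson interval 60.4 to 106), 20.3 CPM in microglia (17.5 to 23.4) and 0.0270 CPM in excitatory neurons (0.0135 to 0.0483). Border macrophages had Tnf, Ccl3 and Ccl2 at 12.2, 9.13 and 6.09 CPM, from 8, 6 and 4 UMIs. These levels were above those in microglia, at 3.44, 1.83 and 2.69 CPM, while Ccl4 was at 6.09 CPM there and 6.77 CPM in microglia. For Il6 the level was 8.81 CPM in microglia (7.01 to 10.9) and 0.00981 CPM in excitatory neurons (0.00267 to 0.0251). These intervals cover counting error only, and microglial Ccl12 was at 1.18 CPM in WT DMXAA replicate 3 and 175 CPM in WT DMXAA replicate 1.

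**Figure D2:**
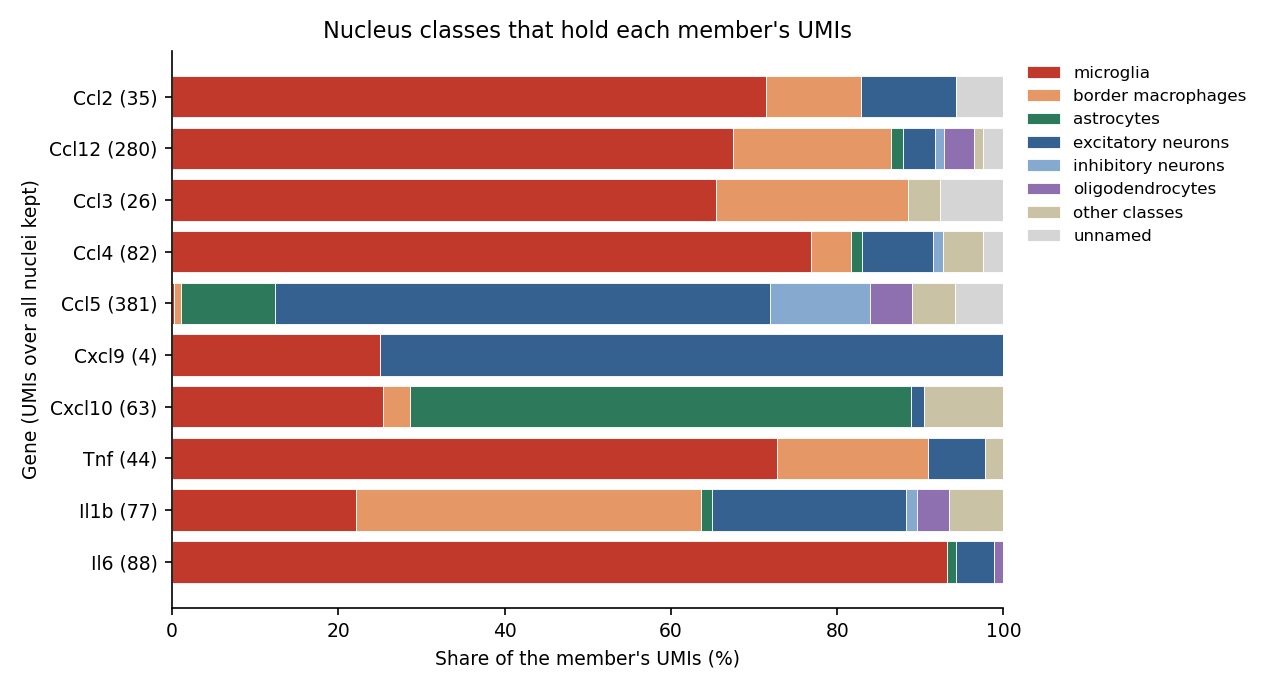
Share of each member's UMIs (horizontal axis, percent) that lay in each nucleus class, pooled over the 16 libraries, with the number of UMIs beside each name. In these pooled counts Il6, Ccl4, Tnf, Ccl2, Ccl12 and Ccl3 are mostly microglial. Of the 189 microglial Ccl12 UMIs, 126 came from WT DMXAA replicate 1. Cxcl10 is mostly astrocytic at 60.3%, and the Ccl5 share in neurons, 71.7%, lies close to their 73.9% of the UMIs of all genes.

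Across all nuclei kept, no member passed the test for DMXAA against vehicle in either genotype. edgeR's quasi-likelihood test (Benjamini-Hochberg adjusted p under 0.05 and absolute log2 change over 0.1) could be applied to Ccl12 and Ccl5, the 2 members above its filter on low counts. It called 0 of these 2 in WT, against 0.418% of 20076 genes tested. At an unadjusted p under 0.05 it gave 1, Ccl12, beside 5.02% of all genes. DESeq2 and limma-trend likewise called 0 with 1 at an unadjusted p under 0.05, beside 5.34% and 4.65% of all genes. In KO it called 0 of 2 members and 0% of all genes, with 0 members and 1082 genes (5.39%) at an unadjusted p under 0.05, and DESeq2 called 0 members and 4 genes. For the difference between the WT and KO effects it called 0 of 2 members and 0.0498% of all genes, with 0 members and 6.73% of all genes at an unadjusted p under 0.05, and DESeq2 called 0 with 1 at that level, beside 7.38% of all genes. With no filter on low counts all 10 members could be fitted over all nuclei, and edgeR called 0 of 10 in WT, 0 in KO and 0 for the difference, against 0.311%, 0% and 0.0419% of 28649 genes. At an unadjusted p under 0.05 these were 2, 1 and 0 members, against 4.69%, 4.84% and 5.63% of all genes. In microglia no member passed the filter on low counts, while 1.89% of 8935 genes were called in WT, 0.179% for the difference and 0% in KO, where 451 genes had an unadjusted p under 0.05 and DESeq2 called 0. The exact permutation test on mean CPM, two-sided over 70 arrangements with a smallest p of 0.0286, gave no adjusted p under 0.05 among the 20 tests of either scope. At least 12 of the 20 tests would have had to reach the smallest p for that, so this count of 0 says little about the members. In the other classes that could be fitted, apart from excitatory neurons, no member passed the filter on low counts, and border macrophages and endothelial cells had too few nuclei per library for a fit. The lowest adjusted p of the permutation tests was 0.476 over all nuclei and 0.857 in microglia.

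Ccl12, a mouse ligand of the monocyte receptor Ccr2, had the largest difference in counts. Over all nuclei kept, WT vehicle replicates 1 to 4 had 14, 9, 6 and 4 UMIs and WT DMXAA replicates 1 to 4 had 168, 26, 3 and 29 UMIs. Thus 3 of the treated WT libraries lay above all vehicle libraries, and replicate 3 lay below them. KO vehicle libraries had 2, 3, 2 and 3 UMIs and KO DMXAA libraries 1, 1, 4 and 5. The mean level was 0.210 ± 0.107 CPM (SD, n = 4) in WT vehicle and 1.55 ± 2.04 CPM in WT DMXAA. It was 0.0675 ± 0.0181 CPM in KO vehicle and 0.0746 ± 0.0575 CPM in KO DMXAA. The edgeR log2 change was 2.83 (SE 0.795, adjusted p = 0.319) in WT and 0.08 (SE 1.28, adjusted p = 0.991) in KO, and the difference between them was 2.75 (SE 1.59, adjusted p = 0.792). Ccl12 passed the filter on low counts through WT DMXAA replicates 1, 2 and 4 (4.56, 0.689 and 0.873 CPM) and WT vehicle replicate 1 (0.350 CPM). No KO library was above 0.145 CPM, so the KO change compares 1 to 5 UMIs per library. The exact permutation p in WT was 0.143, which is 0.476 after adjustment. Without WT DMXAA replicate 3 the WT log2 change was 3.22 and was called (edgeR adjusted p = 0.0126), in a fit that called 1.19% of all genes. Without WT DMXAA replicate 1 it was 1.30 (edgeR adjusted p = 0.806), where 0.351% were called.

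In microglia the WT vehicle libraries had 1, 7, 6 and 3 Ccl12 UMIs, and WT DMXAA libraries had 126, 15, 1 and 20. KO vehicle libraries had 2, 3, 0 and 0 UMIs and KO DMXAA libraries 1, 1, 1 and 2. The sums were 17 and 162 UMIs in WT and 5 and 5 in KO, and 77.8% of the UMIs of the WT DMXAA group came from replicate 1. The mean level was 6.74 ± 4.59 CPM in WT vehicle and 56.6 ± 79.5 CPM in WT DMXAA (SD, n = 4), and 2.97 ± 3.56 and 2.54 ± 0.846 CPM in KO. The exact permutation p in WT was 0.143 (0.952 after adjustment). Fitted with no filter on low counts, which tests 21297 genes and calls 1.02% of them in WT, Ccl12 was called with a log2 change of 3.04 (SE 0.659, edgeR adjusted p = 0.0066), and it was the 1 member called there. That call was lost without WT DMXAA replicate 1 (log2 change 1.35, edgeR adjusted p = 0.494), where 1.76% of all genes were called. It was not made by DESeq2 with no filter (log2 change 3.06, adjusted p = 0.116), which called 0.892%. With the filter kept, Ccl12 passed it in 13 of the fits that left out 1 library. It passed there through WT DMXAA replicates 1, 2 and 4, at 175, 23.6 and 26.9 CPM. Every other library lay at 11.3 CPM or below, so the filter let Ccl12 in only through the group where it was high. In 12 of the 13 fits Ccl12 was not called, at edgeR adjusted p-values from 0.133 to 0.321. Without WT DMXAA replicate 3 it was called, at a log2 change of 3.46 (edgeR adjusted p = 0.000162), in a fit that called 8.07% of all genes. The difference from the KO effect, 3.17 (SE 1.63, edgeR adjusted p = 0.765), was not called, at a background of 0.141%.

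**Figure D3:**
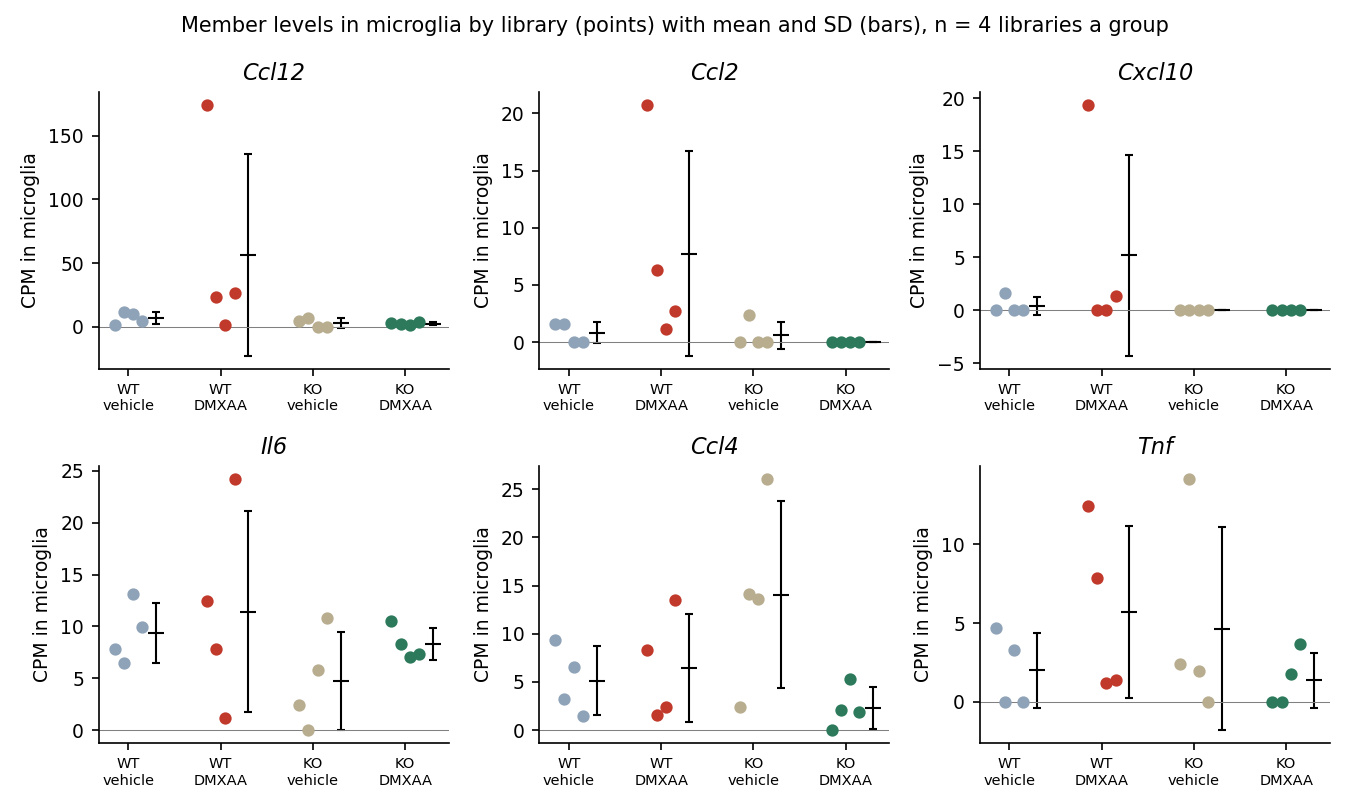
CPM in microglia (vertical axis) of 6 members in each library (points, 4 a group), with the group mean and SD at the right of each group. For Ccl12, WT DMXAA replicate 1 stands at 175 CPM, replicates 2 and 4 at 23.6 and 26.9 CPM and replicate 3 at 1.18 CPM, below the 4 WT vehicle libraries. It lies below WT vehicle replicate 1 (1.57 CPM) only through dividing 1 UMI by another library total.

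Pooled over libraries, the share of microglial nuclei with a Ccl12 UMI was 0.833% (11 of 1321 nuclei, 95% exact binomial interval 0.416 to 1.49) in WT vehicle and 6.90% (100 of 1450, 5.65 to 8.32) in WT DMXAA, with no test since nuclei are not replicates. By library it was 19.2%, 3.43%, 0.256% and 4.62% in WT DMXAA replicates 1 to 4, and 0.314% to 1.25% in WT vehicle. KO libraries held 0% to 0.952% with vehicle and 0.307% to 0.806% with DMXAA. In excitatory neurons, taken as the background class, 0.0150% of nuclei in WT vehicle and 0.0613% in WT DMXAA had a Ccl12 UMI, at a median of 7944 and 7981 UMIs per nucleus against 1860 and 1949 in microglia. After thinning to 1000 UMIs a nucleus, with 9 and 17 shallower microglial nuclei left out, the share was 0.686% and 5.02%. Single microglia in WT DMXAA replicate 1 held up to 11 Ccl12 UMIs.

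Detection of interferon response genes in single microglia was compared between nuclei with and without Ccl12. In WT DMXAA replicate 1, 99.0% of the 299 microglia without a Ccl12 UMI and 100% of the 71 with one held a UMI of the 10 response genes. Among microglia without Ccl12 that share was 92.3%, 83.6% and 92.0% in WT DMXAA replicates 2, 3 and 4, and it was 36.6% to 39.7% in the WT vehicle libraries, so that a single UMI does not mark a response. Those genes summed to 42.2 per 10000 UMIs without and 43.2 per 10000 UMIs with Ccl12. In replicate 2 the values were 21.6 without and 38.8 with, in replicate 4 they were 20.1 without and 14.0 with, and in replicate 3 the 1 nucleus with Ccl12 had 6.09 against 12.6. No common direction was seen within libraries, whereas across the treated WT libraries replicate 1 was highest and replicate 3 lowest for both measures. Replicates 2 and 4 went the other way, with interferon response levels of 2217 and 1985 CPM and Ccl12 shares of 3.43% and 4.62%.

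**Figure D4:**
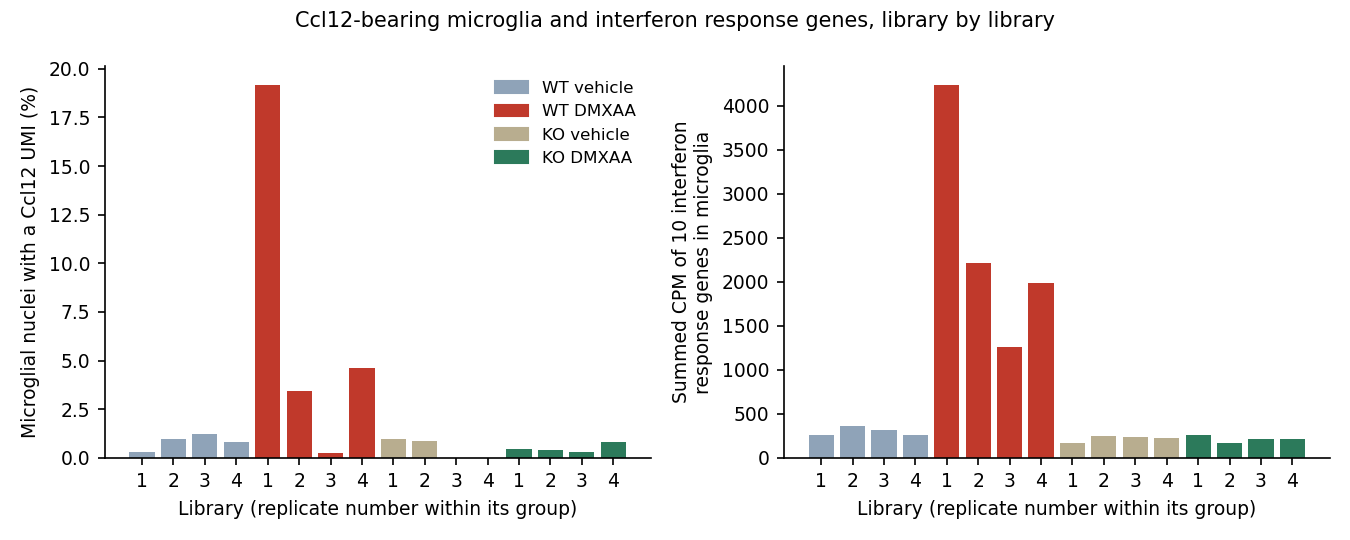
Left, percent of microglial nuclei with a Ccl12 UMI, and right, summed CPM of 10 interferon response genes in microglia, for each of the 16 libraries (bars, colored by group). Both axes start at 0, WT DMXAA replicate 1 reaches 19.2% and 4241 CPM, and replicate 3 is the lowest treated WT library in both panels. Replicate 2 lies below replicate 4 on the left (3.43% and 4.62%) and above it on the right (2217 and 1985 CPM).

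Ccl2, which lies like Ccl12 on chromosome 11 (82035571 to 82037453, plus strand, against 82101845 to 82103400 for Ccl12, GRCm38) and another ligand of Ccr2, had few UMIs. In microglia WT vehicle libraries had 1, 1, 0 and 0 UMIs and WT DMXAA libraries 15, 4, 1 and 2, so that the groups differed in sum (2 and 22) but overlapped at 1. KO libraries had 1 UMI in 4 vehicle and 0 in 4 DMXAA libraries. The mean level in WT was 0.794 ± 0.918 CPM with vehicle and 7.74 ± 8.96 CPM with DMXAA (SD, n = 4), with an exact permutation p of 0.0857 (0.857 after adjustment). With no filter on low counts the edgeR log2 change was 2.98 (SE 0.971, adjusted p = 0.207). Without WT DMXAA replicate 1 the DMXAA libraries held 7 UMIs and averaged 3.39 CPM, and the log2 change was 1.84 (edgeR adjusted p = 0.811). Over the barcodes that filters left out, the order was the other way, with 18 UMIs in WT vehicle, 13 of them in replicate 4, and 5 in WT DMXAA. An annotated gene, Gm17268, lies over Ccl2 on the opposite strand, and since the sources do not state whether the counting used strand, reads of the pair cannot be told apart.

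Ccl3 and Ccl4, chemokines that monocytes and microglia release early in inflammation, had no change that passed a test with all libraries in the fit. Microglial Ccl4 UMIs were 6, 2, 4 and 1 in WT vehicle, 6, 1, 2 and 10 in WT DMXAA, 1, 6, 7 and 12 in KO vehicle and 0, 1, 3 and 1 in KO DMXAA. The WT groups overlapped, and in KO 3 of the 4 vehicle libraries lay above every treated library while vehicle replicate 1 lay among them. The mean in KO was 14.1 ± 9.66 CPM with vehicle and 2.30 ± 2.19 CPM with DMXAA (SD, n = 4, exact permutation p = 0.0571, 0.857 after adjustment). In KO vehicle replicate 4, 9 of the 12 UMIs lay in 1 nucleus, and without it the vehicle mean was 9.19 ± 5.70 CPM. The edgeR log2 change in KO with no filter was -2.42 (SE 0.768, adjusted p = 0.852). Without WT DMXAA replicate 3, a library of neither KO group, it was likewise -2.42 but was called (edgeR adjusted p = 0.0226), in a fit that called 1.38% of all genes. Ccl3 had 6 microglial UMIs with vehicle and 7 with DMXAA in WT, and 3 and 1 in KO, and all 6 of the WT vehicle UMIs lay in replicate 1. A few nuclei carried many of these UMIs, since 1 microglial nucleus of WT DMXAA replicate 4 had 10 Ccl4 and 4 Ccl3 UMIs. Of the 11 microglia with Ccl3, 4 also had Ccl4.

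Ccl5, a chemokine made by T cells and by activated glia, had the most UMIs of the list and few in microglia. Its highest level was in border macrophages, at 4.57 CPM, from 3 UMIs (95% Poisson interval 0.942 to 13.3). It had 1 UMI in 4757 microglial nuclei (0.107 CPM, 0.00272 to 0.599) and 227 UMIs in excitatory neurons (0.557 CPM, 0.486 to 0.634). Inhibitory neurons had 46 UMIs (95% Poisson interval 0.736 to 1.34 CPM), astrocytes were at 0.907 CPM (0.657 to 1.22) and oligodendrocytes at 0.430 CPM (0.259 to 0.671). Of the 371 nuclei with a Ccl5 UMI, 362 had just 1. Over all nuclei, WT vehicle libraries had 29, 33, 24 and 31 UMIs, WT DMXAA libraries 29, 62, 13 and 30, KO vehicle libraries 15, 8, 17 and 18, and KO DMXAA libraries 24, 10, 16 and 22. In neither genotype did the treated libraries separate from the vehicle libraries. The log2 change was 0.26 (SE 0.368, edgeR adjusted p = 1) in WT and 0.28 (SE 0.406, adjusted p = 0.872) in KO. In excitatory neurons, where Ccl5 was the 1 member above the filter and 0.124% of genes were called in WT, 0% in KO and 0.0282% for the difference, the log2 change was 0.47 (SE 0.421, edgeR adjusted p = 1) in WT and 0.37 (SE 0.509, adjusted p = 0.84) in KO. Markers of T and NK cells summed to 2.50 to 3.98 CPM in WT vehicle libraries and to 0.675 to 2.99 CPM in WT DMXAA libraries. In KO they summed to 1.13 to 1.96 CPM with vehicle and 1.30 to 1.90 CPM with DMXAA. The part of these cells in the Ccl5 level was not tested.

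Cxcl9 and Cxcl10 are ligands of Cxcr3, the receptor of activated T cells, and are induced by interferons. Cxcl10 had 7, 7, 0 and 0 UMIs in WT vehicle, 16, 7, 1 and 10 in WT DMXAA, 2, 0, 2 and 1 in KO vehicle and 1, 0, 3 and 6 in KO DMXAA. The WT groups overlapped, with 14 and 34 UMIs in sum and an exact permutation p of 0.143 (0.476 after adjustment). Without WT DMXAA replicate 3 that p, unadjusted, was 0.0286, the smallest that 35 arrangements allow, and without replicate 1 it was 0.429. WT vehicle replicates 1 and 2 and WT DMXAA replicate 2 had 7 UMIs each. Without replicate 3 the groups thus separated only through dividing 7 UMIs by other library totals. The 63 UMIs came from 27 nuclei, and 1 microglial nucleus of WT DMXAA replicate 1 held 14 of them. Apart from that nucleus, microglia had 2 Cxcl10 UMIs in all. In microglia with no filter the edgeR log2 change in WT was 3.14 (SE 1.27, adjusted p = 0.476), and it was 0.19 without WT DMXAA replicate 1 (edgeR adjusted p = 1). Astrocytes had 13 UMIs in WT vehicle, 12 in WT DMXAA, 3 in KO vehicle and 10 in KO DMXAA. The 13 UMIs of WT vehicle lay in 2 nuclei, with 7 and 6 UMIs, 1 each in replicates 1 and 2, and the 12 of WT DMXAA lay in 7 nuclei, so that the like sums do not show a like level. The gene overlaps Art3 on the opposite strand, which had 163 UMIs in astrocytes. Cxcl9 had 1, 1 and 2 UMIs in WT DMXAA replicates 1, 2 and 3 and 0 in the 13 other libraries, which is too few to compare. Over all deposited barcodes it had 11 UMIs in WT DMXAA, 2 in KO DMXAA and 0 in both vehicle groups. Filters thus left out 9 of its 13 UMIs, 7 of them in WT DMXAA replicate 1.

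Tnf, the inflammatory cytokine of activated myeloid cells, had 5 microglial UMIs in WT vehicle, 16 in WT DMXAA, 8 in KO vehicle and 3 in KO DMXAA. By library WT DMXAA had 9, 5, 1 and 1 and WT vehicle 3, 0, 2 and 0, so that the groups overlapped (exact permutation p = 0.286, 1 after adjustment). KO vehicle libraries had 1, 6, 1 and 0, with 5 of the 6 in 1 nucleus, and KO DMXAA libraries had 0, 0, 1 and 2. Il6, which acts through Il6ra and Il6st, had 5, 4, 8 and 7 microglial UMIs in WT vehicle, 9, 5, 1 and 18 in WT DMXAA, 1, 0, 3 and 5 in KO vehicle and 4 in each KO DMXAA library. The mean was 9.34 ± 2.90 CPM in WT vehicle and 11.4 ± 9.71 CPM in WT DMXAA (SD, n = 4), with no separation (exact permutation p = 0.743, 1 after adjustment). The edgeR log2 change of Il6 in microglia with no filter was 0.31 (SE 0.553, adjusted p = 0.963) in WT and 0.70 (SE 0.719, adjusted p = 0.875) in KO. Il6 was spread thinly, since 78 of the 83 nuclei that held it had 1 UMI and none had over 2.

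Il1b, the cytokine that caspase-1 releases from its precursor, had 18, 1, 7 and 3 UMIs over all nuclei in WT vehicle and 14, 1, 15 and 3 in WT DMXAA, with no separation. KO vehicle libraries had 1, 4, 3 and 3 UMIs and KO DMXAA libraries 1 in each. The KO groups thus held 11 and 4 UMIs and overlapped in counts at 1 UMI. Their CPM values did not overlap (exact permutation p = 0.0286, 0.476 after adjustment), but vehicle replicate 1 lay above the treated libraries only through dividing 1 UMI by other library totals. Of the 16 Il1b UMIs in border macrophages of WT vehicle replicate 1, all lay in 1 nucleus, which also held 5 Ccl12, 1 Ccl3 and 1 Ccl4 UMIs. The antisense gene Il1bos overlaps Il1b and had 18 UMIs in microglia beside 17 of Il1b.

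The border macrophages were few, with 36 nuclei in vehicle and 139 in DMXAA libraries of WT, and 83 and 50 in those of KO, and WT DMXAA replicate 3 gave 108 of them. Of those 108 nuclei, 68 held a UMI of S100a8 or S100a9, genes of neutrophils and inflammatory monocytes, and 1 of the 68 had a UMI of Mrc1 or Cd163. The name thus does not describe these nuclei. They carried all 12 Il1b UMIs of border macrophages in WT DMXAA and no Ccl12. Without the nuclei with S100a8 or S100a9, Il1b had 17 UMIs in WT vehicle and 0 in WT DMXAA, which allows up to 16.9 CPM at 3 counts, or 20.7 CPM as the upper end of the 95% Poisson interval. Of the 17, 16 lay in the 1 nucleus of replicate 1 named above, and without it WT vehicle was at 12.2 CPM (1 UMI, 95% Poisson interval 0.308 to 67.8). Ccl12 was then at 141 CPM in WT vehicle (12 UMIs, 73.0 to 247) and 180 CPM in WT DMXAA (32 UMIs, 123 to 254). Of the 32 UMIs, 18 came from 8 nuclei of replicate 1, and without that library WT DMXAA was at 87.7 CPM (14 UMIs, 48.0 to 147). WT vehicle without its replicate 1 was at 126 CPM (2 UMIs, 15.2 to 454), so that the direction between the groups was not determined. It was at 18.9 CPM in KO vehicle (3 UMIs, 3.89 to 55.2) and 56.5 CPM in KO DMXAA (6 UMIs, 20.7 to 123). Of the 12 WT vehicle UMIs of Ccl12, 10 lay in replicate 1, which gave 27 of the 36 nuclei. Among the nuclei without S100a8 or S100a9, 29 of 36 in WT vehicle and 40 of 70 in WT DMXAA had a UMI of Mrc1 or Cd163. In KO it was 64 of 82 with vehicle and 44 of 49 with DMXAA. Of the 8 nuclei of WT DMXAA replicate 1, 3 had such a UMI, so that the name is less sure for WT DMXAA. Since a single library in WT vehicle and 1 in WT DMXAA reached 20 nuclei, no test was made in this class.

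Any of the 10 members was detected in 4.09% of microglia in WT vehicle, 10.6% in WT DMXAA, 2.80% in KO vehicle and 2.84% in KO DMXAA. By library it was 25.1%, 5.92%, 1.53% and 9.78% in WT DMXAA replicates 1 to 4 and 2.99% to 5.35% in WT vehicle, so that the WT groups overlapped, and without replicate 1 the WT DMXAA share was 5.65%. Apart from Ccl12, microglial member UMIs summed to 56 in WT vehicle and 123 in WT DMXAA, and to 49 and 26 in KO. In WT DMXAA replicates 1 to 4 gave 65, 16, 6 and 36 of them and in WT vehicle 22, 8, 17 and 9, so that the groups overlapped. The mean level was 42.7 ± 35.8 CPM in WT DMXAA, 26.9 CPM without replicate 1, and 22.0 ± 10.9 CPM in WT vehicle. More than 1 member in the same nucleus was seen in 6, 21, 4 and 0 microglia of these groups. Of 23 microglia with Ccl2, 7 also held Ccl12, which was seen in 120 of all 4757. WT DMXAA replicate 1 gave 71 of those 120 nuclei and 15 of the 25 microglial Ccl2 UMIs, and its part in the overlap was not tested. Of 77 microglia with Il6, 4 held Ccl12. These overlaps are counts over pooled libraries and differ in depth and treatment.

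**Figure D5:**
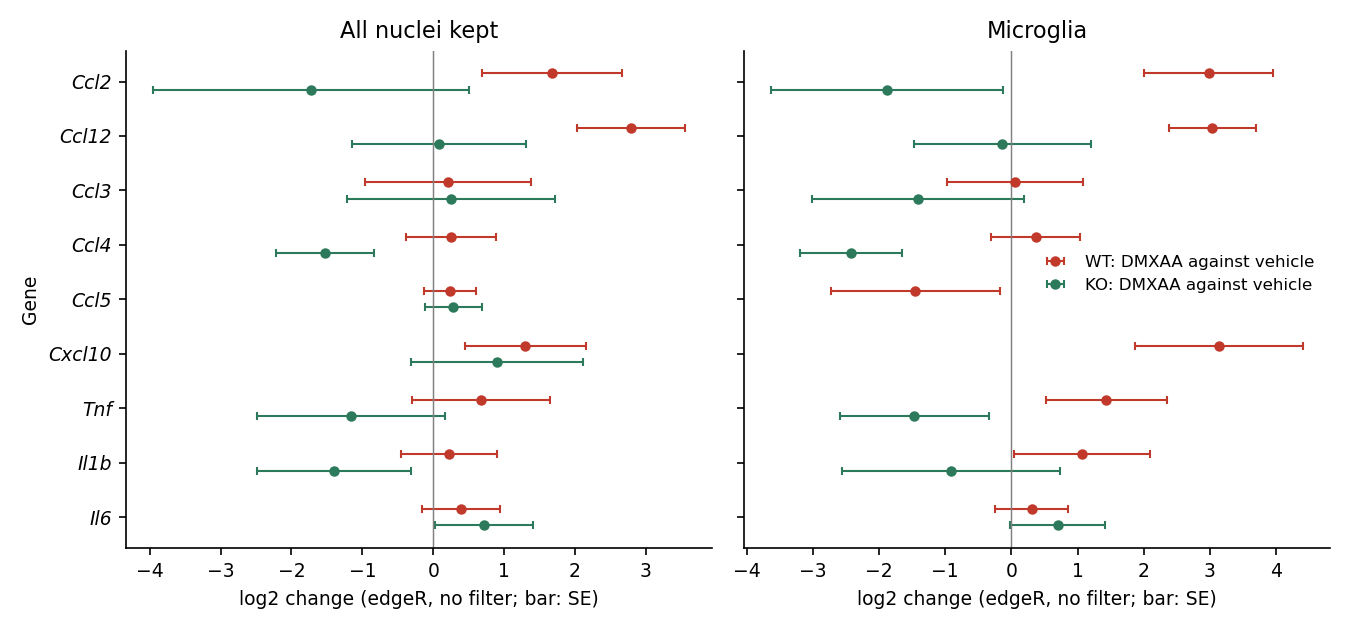
edgeR log2 change of DMXAA against vehicle (horizontal axis, bar: SE) in WT (red) and KO (green) with no filter on low counts, over all nuclei kept and in microglia. Cxcl9 and comparisons with no UMI in either group are left out. In microglia, Ccl12, Cxcl10 and Ccl2 in WT lie between 2.98 and 3.14 with wide errors, and without WT DMXAA replicate 1 they were 1.35, 0.19 and 1.84, and Ccl4 in KO lies at -2.42.

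No gene of 4 related lists passed the test with DMXAA. Of 30 other chemokines, 11 could be tested over all nuclei, and edgeR called 0 in WT and 0 in KO, with 4 and 1 at an unadjusted p under 0.05, a level that 5.02% of all genes reached in WT and 5.39% in KO. Their median log2 change was 0.07 in WT and 0.19 in KO, beside 0.01 and 0.00095 for all genes. Of 23 chemokine receptors 11 were tested, of 20 receptors and signaling genes of these cytokines 18, and of 39 other cytokines 18, and edgeR called 0 of each in both genotypes. At an unadjusted p under 0.05 these 3 lists had 3, 1 and 2 genes in WT and 2, 1 and 1 in KO. In microglia 3, 2, 12 and 7 genes of the 4 lists were tested, and edgeR called 0 in either genotype, with 0, 1, 2 and 3 in WT and 0, 0, 1 and 0 in KO at an unadjusted p under 0.05, beside 9.95% and 5.05% of all genes. For these lists the calls of other tools were not tabulated. Of the 10 interferon response genes, used as a check on the treatment and chosen with earlier results known, 9 rose in WT over all nuclei, with a log2 change of 4.05 for Irf7 (edgeR adjusted p = 0.000962), and 0 were called in KO. In microglia 6 were tested, 6 rose in WT and 0 were called in KO. For the difference between genotypes, 3 of 10 were called over all nuclei and 4 of 6 in microglia.

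KO vehicle was also compared with WT vehicle, in which 47.7% of genes over all nuclei, 13.7% in microglia and 49.2% in excitatory neurons were called (30.9% and 6.28% over all nuclei and in microglia with no filter). Neither Ccl12 (log2 change -1.30, SE 1.09, edgeR adjusted p = 0.337) nor Ccl5 (-0.63, SE 0.393, adjusted p = 0.192) was among them. Over all nuclei, lower counts in KO vehicle were seen for Ccl5 (58 UMIs against 117), Ccl12 (10 against 33) and Il6 (10 against 27). They were also lower for Il1b (11 against 29), Cxcl10 (5 against 14), Ccl2 (1 against 8), Ccl3 (4 against 8) and Tnf (9 against 12). Replicate 1 gave 62.1% of the WT vehicle UMIs of Il1b, 87.5% of those of Ccl2 and of Ccl3 and 83.3% of those of Tnf. All 14 of Cxcl10 lay in replicates 1 and 2, so the lower sums of these members rest largely on 1 or 2 libraries. Cxcl9 had 0 UMIs in both vehicle groups. Ccl4 had more, with 29 UMIs against 20, and in microglia 26 against 13 (edgeR log2 change with no filter 1.57, adjusted p = 0.162). Without WT DMXAA replicate 3 that Ccl4 difference was called (log2 change 1.57, edgeR adjusted p = 0.032), beside 13.3% of all genes. KO vehicle had 929 microglial nuclei against 1321 in WT vehicle, and its microglial markers summed to 155 to 177 CPM over all nuclei against 237 to 263 CPM. Their part in these counts was not tested. With every deposited barcode counted, Ccl5 was called at a log2 change of -0.95 (edgeR adjusted p = 0.0249), as was Il6, which that setting brought above the filter, beside 48.2% of all genes. In that setting WT vehicle replicates 1 and 3 and WT DMXAA replicates 1 and 4 had Il6 at 0.128, 0.135, 0.159 and 0.285 CPM. No KO library was above 0.0862 CPM, so the filter let Il6 in only through WT libraries. Over all nuclei about as many genes were called as not, so the Ccl5 and Il6 calls do not set those members apart. The microglial Ccl4 call stood beside 13.3% of all genes and was made only without 1 library. Age and cohort moved with genotype in all of these comparisons.

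Over the 16 libraries, the genes whose log2 CPM was most like that of Ccl12 in microglia were Slamf6 (Pearson r = 0.910), Samhd1 (0.864) and Marcks (0.857), out of 8935 compared. For Il6 in microglia they were Gm34408 (0.896), Tap2 (0.888) and Rnf167 (0.881). For Ccl5 in excitatory neurons they were Gm26708 (0.875), C2 (0.863) and Tdo2 (0.856), out of 17736. These are descriptions over points that share treatment, genotype and depth, and for Ccl12 WT DMXAA replicate 1 stands far from the other points.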

How the data were processed

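Single-nucleus 3′ libraries of 16 hippocampi, 4 a group, were analysed from the matrices of raw UMI counts that the authors deposited. Per the file headers these were made with Cell Ranger 6.1.2, while the submitters' processing notes name Cell Ranger 3.1.0, Seurat 3.0 and mm10. Whether the counting used strand is not given in the sources used here. Nuclei with 200 to 4000 genes and at most 5% mitochondrial counts were kept, and simulated doublets were used to remove 6.30% to 9.96% of passing barcodes per library. Nuclei were clustered (2000 variable genes, 30 principal components, 20 neighbours, resolution 0.5), and clusters were named from marker lists, with naming thresholds set after the clusters had been seen. The names are rebuilt and may differ from those of the study.

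UMIs were summed per library and class and tested with edgeR 4.0.16 (quasi-likelihood, TMM factors, its filter on low counts, all 4 groups in 1 fit), with Benjamini-Hochberg adjustment over all genes tested. Genes were called where the adjusted p was below 0.05 with a log2 change larger than 0.1 in size. The study tested single nuclei, which are not replicates. The SE is the absolute log2 change over the square root of F. DESeq2 1.42.0 and limma 3.58.1 were alternatives, as were no filter, no TMM factor, other nucleus filters, thinning to 1000 UMIs and leaving out each library. Mean CPM was compared by exact two-sided permutation tests. Scripts were tested on simulated data. Libraries held 32721410 to 51819478 UMIs, so that single-digit UMI counts limit the precision.

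The members and gene lists were chosen with earlier results of these data known. All 10 members are named, and genes of other lists where they were called or a result turns on them. The most similar genes are the 3 with the highest Pearson correlation.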

Additional observations from a re-analysis of the deposited data

Results flagged for a closer look

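In a group of 4 libraries, WT DMXAA replicate 1 stood far from the others in microglia for 3 members. Ccl12 was at 174.5 CPM there and at 1.18, 23.6 and 26.9 CPM in the other 3 libraries. Cxcl10 was at 19.4 CPM against 0, 0 and 1.35 CPM, and its 14 UMIs lay in 1 nucleus. Il1b was at 12.5 CPM against 0, 0 and 1.57 CPM. Of 37 groups with at least 10 UMIs, 3 had such a library, and for normally distributed values chance marks about 1 in 20, a rate that was not measured for counts as sparse as these. The same library had the highest interferon response level, 4241 CPM, and the part of that in the member levels was not tested.

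Gm17268, annotated on the strand opposite Ccl2, had 50 microglial UMIs in WT DMXAA and 3 in WT vehicle, with 47 of the 50 in replicate 1 (exact permutation p = 0.457). Barcodes that the filters left out held 55 Ccl12 UMIs in WT DMXAA and 19 in WT vehicle. By library these were 44, 1, 4 and 6 with DMXAA and 5, 5, 4 and 5 with vehicle.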

How the results depend on the processing

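Few UMIs limit every comparison here, and 1 library often decides a value. Over all nuclei kept, the count of members called in WT was 0 to 1 when each library was left out, with the 1 (Ccl12) reached without WT DMXAA replicate 3, where 1.19% of all genes were called. In microglia in WT, 1 member (Ccl12) was called with no filter on low counts, 1 with microglia chosen nucleus by nucleus and no filter, and 0 to 3 when each library was left out, with 0 without WT DMXAA replicate 1 and 3 (Cxcl10, Ccl2 and Ccl12) without WT DMXAA replicate 3. That last fit called 4.49% of all genes, against 0.719% to 2.05% in the other fits that left out 1 library with no filter, and 14 Cxcl10 UMIs lay in 1 nucleus. In KO and between vehicle groups the leave-one-out range in microglia was 0 to 1, with the 1 (Ccl4) reached without WT DMXAA replicate 3, where 1.38% and 13.3% of all genes were called. KO vehicle against WT vehicle gave 2 members with every deposited barcode and 1 with nuclei of over 4000 genes kept, beside 48.2% and 47.4% of all genes. With every deposited barcode, Il6 passed the filter only through WT libraries. The Ccl12 share of WT DMXAA microglia was 5.02% after thinning, and microglia held 79.3% of Ccl12 UMIs when chosen nucleus by nucleus. Directions turned where the change was near 0. The Ccl12 log2 change in KO was -0.12 by limma-trend and -0.051 with nuclei of over 4000 genes kept, and ranged from -0.38 to 0.33 when each library was left out. The Ccl5 difference between genotypes was 0.0016 by DESeq2 and -0.47 to 0.25 when each library was left out, and the Ccl5 change in WT was -0.19 (without WT DMXAA replicate 2) to 0.53. The cause was not tested. Alternatives that join no filter with another choice, and levels given without 1 library or nucleus, were added after seeing the data. No paired analysis was possible because replicate numbers follow accession order and pair no animals.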
